A study of Saccharomyces cerevisiae with 18 samples.

Results

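The data describe 40 genes through which Saccharomyces cerevisiae senses, imports and uses its nitrogen sources, out of 6713 open reading frames counted in the series. The genes were taken by name and role from a list drawn up with earlier results of these data known, and the rule itself uses no measured value. All 40 were found in the count tables and in the RefSeq annotation. They comprise 7 regulators, 3 ammonium permeases, 5 genes of glutamate and glutamine metabolism, 8 genes for the use of urea and allantoin, 5 for the use of proline and GABA, and 12 amino acid permeases. Footprint counts and mRNA counts were compared between media, SD against YPD, and between lysates without and with the genes TMA20 or TMA64, whose products (MCT-1 and eIF2D in mammals) take part in ribosome recycling.

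Strains Δtma20 (tma20Δ::KanMX4), Δtma64 (tma64Δ::KanMX4) and ΔΔtma20tma64 (tma64Δ::HygMX4 tma20Δ::KanMX4) and their wild-type parent (wt, BY4741) were each grown in SD and in YPD. All strains are MATa his3Δ1 leu2Δ0 met15Δ0 ura3Δ0, so the wild type is also an auxotroph. SD held yeast nitrogen base with ammonium sulfate and 2% glucose. The methods of the study give complete amino acid supplementation of SD, whereas the sample labels describe the base as free of amino acids and list nothing added, and which nitrogen compounds the cells had in SD is therefore uncertain. YPD held yeast extract, peptone and 2% glucose. Cycloheximide (100 µg/ml) was given to every culture 3 min before harvest. Each of 9 lysates was divided between RNA-Seq of oligo(dT)-selected mRNA and Ribo-Seq of ribosome-protected fragments. There were 4 SD lysates, 1 per strain, and 5 YPD lysates, with 2 biological replicates of wt (WT1 and WT2). The mutants thus had no replicate within a medium. All p-values rest on the spread left between lysates after the terms of each fit, in which WT1 and WT2 are the only replicates. Within each medium the values of lysates are listed for Δtma20, Δtma64, ΔΔtma20tma64 and wt, with WT1 and WT2 for wt in YPD. "SD" always means the medium, and a standard deviation is written out.

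Values are counts on open reading frames scaled to library size with TMM (CPM). They are shares of a library, so fewer cells expressing a gene and less RNA of it per cell cannot be told apart. RNA-Seq libraries held 5608491 to 11388027 counts and Ribo-Seq libraries 1668588 to 23532664. The least deep footprint libraries came from SD, with 1668588 counts for Δtma20 and 2337313 for wt, against 5072702 to 8516836 in the YPD lysates. Reads on no feature were 28.3% to 39.1% of RNA-Seq reads in SD lysates and 18.8% to 23.6% in YPD lysates, and the part of this difference in the mRNA results was not tested. TMA20 mRNA stood at 0.00 to 1.52 CPM in the 4 lysates labelled without it and at 137 to 155 CPM in the other 5, and TMA64 mRNA at 0.00 to 0.67 CPM in the 4 labelled without it and at 83.8 to 95.1 CPM in the other 5, so the deletions match the labels. The a-specific gene STE2 had 395 to 741 CPM in mRNA and the α-factor genes at most 1.72 CPM, but the α-specific gene STE3 had 4.83 to 15.9 CPM. Of the auxotrophy genes, LEU2, MET15 and URA3 had at most 0.115 CPM in mRNA, whereas HIS3 had 157 to 294 CPM. The source of the STE3 and HIS3 reads was not tested.

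In nitrogen catabolite repression, yeast keeps genes for poor nitrogen sources silent while good ones such as glutamine are present. The GATA factors Gln3 and Gat1 activate these genes through upstream GATAAG motifs, the GATA factors Dal80 and Gzf3 oppose them, and Ure2 holds Gln3 in the cytoplasm. Permeases answer to further signals: the SPS sensor of external amino acids drives several amino acid permease genes, and the TORC1 kinase acts through Npr1 on permeases at the membrane.

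The letters GATAAG, on either strand of the 500 bases before the start codon, were found upstream of 26 of 40 genes (65.0%), against 22.7% of 6011 open reading frames with such a window. At least 2 copies were upstream of 20 of 40 (50%), against 3.63% of all. The letters were present upstream of all 3 ammonium permeases, all 8 urea and allantoin genes, 6 of 7 regulators, 3 of 5 glutamate and glutamine genes, 3 of 5 proline and GABA genes and 3 of 12 amino acid permeases (GAP1, CAN1 and AGP1). MEP2 held 7 copies, the most upstream of any open reading frame. Copies in overlapping runs were counted separately, and DAL1 and DAL4, which are transcribed away from each other, share upstream sequence. A match describes the letters only and does not show a bound site.

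The windows below are examples from genes whose footprints rose in SD, and other copies and other genes are left out. MEP3, with 5 copies, fell in footprints, and DAL3, with 5 copies, did not pass. The windows show GATAAG in capitals with 8 flanking bases on each side, read 5′ to 3′ on the strand of the match (RefSeq, R64).
GAP1, 463 bases before the start codon, chrXI:514586-514607, forward strand: ttccttttGATAAGgggtcgtt
GAP1, 337 bases before, chrXI:514712-514733, forward strand: tggtaactGATAAGattgttaa
GAP1, 287 bases before, chrXI:514762-514783, reverse strand: ctccagaaGATAAGctaatcgg
GAP1, 236 bases before, chrXI:514813-514834, forward strand: ttaaacatGATAAGcgcatagt
AGP1, 423 bases before, chrIII:78335-78356, reverse strand: gagtcataGATAAGcaggttgc
AGP1, 247 bases before, chrIII:78159-78180, reverse strand: tcaatcctGATAAGacggctaa
MEP1, 367 bases before, chrVII:733287-733308, forward strand: tccgcagaGATAAGcaaccagg
MEP1, 307 bases before, chrVII:733227-733248, reverse strand: gcgataacGATAAGattcacaa
MEP2, 450 bases before, chrXIV:356989-357010, forward strand: ataagaaaGATAAGataagaca
MEP2, 322 bases before, chrXIV:357117-357138, forward strand: caaagccaGATAAGataagaaa
YBR208C, 473 bases before, chrII:642676-642697, reverse strand: aagcttcaGATAAGataagcag
YBR208C, 318 bases before, chrII:642521-642542, reverse strand: gccattgaGATAAGacacgcag
DUR3, 329 bases before, chrVIII:74566-74587, forward strand: aatatcccGATAAGataacacc
In both MEP2 windows and in the YBR208C window 473 bases before the start codon, the sequence runs on into a further GATAAG copy that overlaps the one in capitals. The sequence CGGNNNNNNNNNNCCG, the form bound by Put3, the activator of proline use, was upstream of 4 of 40 genes (10%; PUT1, PUT2, DIP5 and GDH2), against 2.66% of all, with 2 copies in PUT1, shown with both triplets in capitals.
PUT1, 292 bases before, chrXII:424874-424897, forward strand: ctttCGGcaatggctttCCGgtta
PUT1, 264 bases before, chrXII:424902-424925, forward strand: gcctCGGgtttcgcatcCCGaaaa
TGACTCA, the element of Gcn4, was upstream of 3 of 40 (7.50%), against 4.01% of all.

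**Figure D1:**
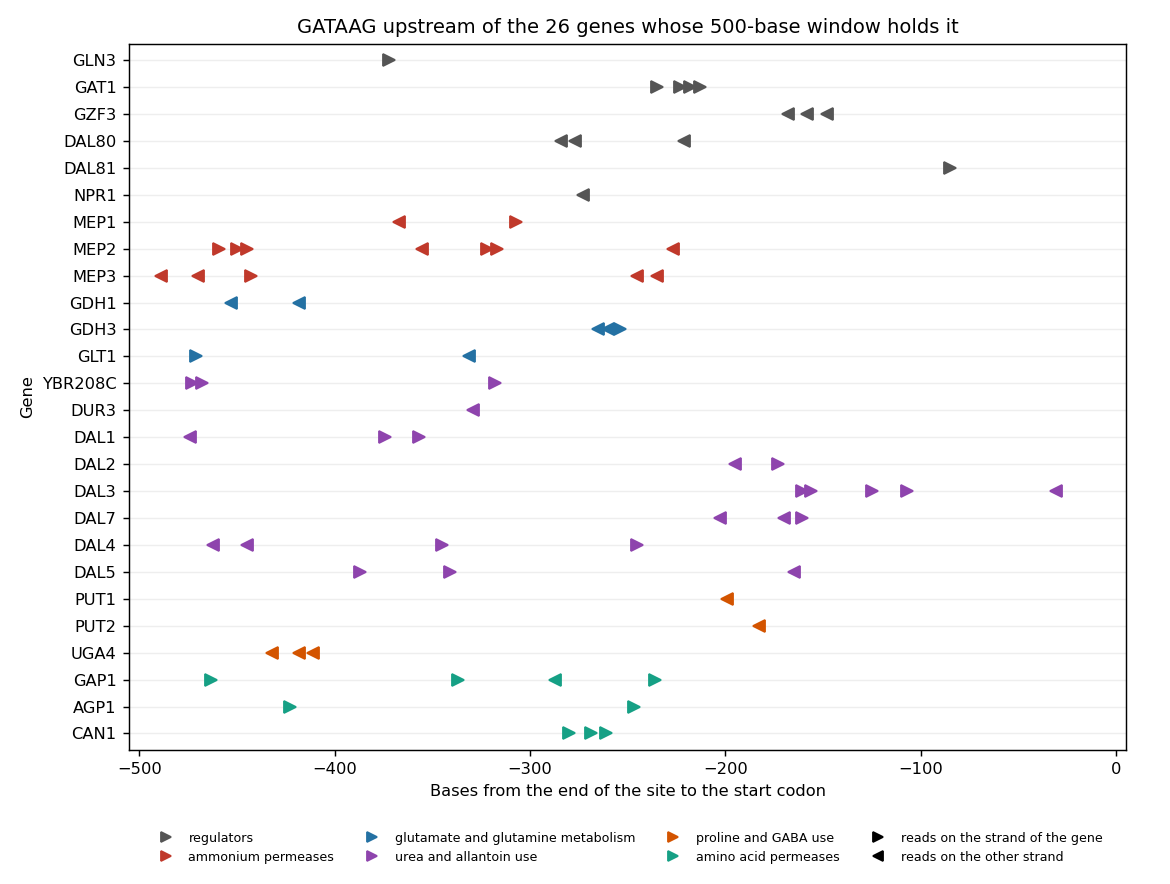
Positions of GATAAG in the 500 bases before the start codon, as the number of bases from the end of each site to the start codon, for the 26 genes whose window holds it, coloured by role. Triangles point right where the motif reads on the strand of the gene and left where it reads on the other strand. MEP2 has 7 sites, and DUR3 has 1.

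The genes covered a wide range of levels. Per kilobase of coding length, the median footprint level over the 9 lysates was 1250 CPM per kb for GLN1, glutamine synthetase, 440 for GDH1, the glutamate dehydrogenase that fixes ammonium, and 209 for GNP1, a glutamine permease. It was 15.3 CPM per kb for GAP1, the general amino acid permease, and at most 1.01 for the allantoin gene DAL7, the proline permease gene PUT4, the allantoin permease gene DAL4, the allantoate permease gene DAL5 and DAL80. The counts behind the lowest of these were small: DAL80 had 0 to 3 footprint counts per library, and DAL5 1 to 17. Both were therefore left out of the footprint test by edgeR's expression filter, which kept 38 of 40 genes, whereas the mRNA test kept all 40.

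Across the media the footprints of these genes rose in SD more often than they fell. Among 38 genes tested, 13 had more footprints in SD and 4 had fewer, where 14.3% of all 5369 genes tested were higher and 11.3% lower (edgeR, adjusted p under 0.05). The median log2 fold change was 0.20, against -0.01 for all genes tested. In mRNA the count ran the other way: 5 of 40 were higher and 11 lower, where 14.1% of all 5966 genes were higher and 11.9% lower, with a median of -0.10, against 0.00 for all genes. Translation efficiency, the ratio of footprints to mRNA, was tested as the interaction of assay and medium. The fit had no term for the lysate shared by both assays, and calls that change with such a term are given below. Translation efficiency was higher in SD for 9 of 39 genes and lower for none (edgeR, adjusted p under 0.05), where 5.04% of all 5935 genes were higher, 2.41% lower and 7.45% either. At an unadjusted p under 0.05 there were 21 of 39 genes, of which only DAL81 was lower (-0.42), where 23.3% of all genes had such a p. The median change in translation efficiency was 0.34, against 0.03 for all genes. Every SD lysate was above every YPD lysate in footprints for 10 of 38 genes (10.2% of all genes tested) and below for 1 (9.22% of all). In mRNA every SD lysate was above for 2 of 40 (12.9% of all) and below for 11 (12.2% of all). Without the 2 shallowest footprint lysates, a choice made after the depths were seen, 10 genes were higher and 1 lower in footprints (7.72% and 4.80% of all genes), and 3 were higher in translation efficiency (AGP1, DUR3 and GAP1, where 1.07% of all genes were higher). With strain as a term, the medium difference then rested on Δtma64 and ΔΔtma20tma64 alone.

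**Figure D2:**
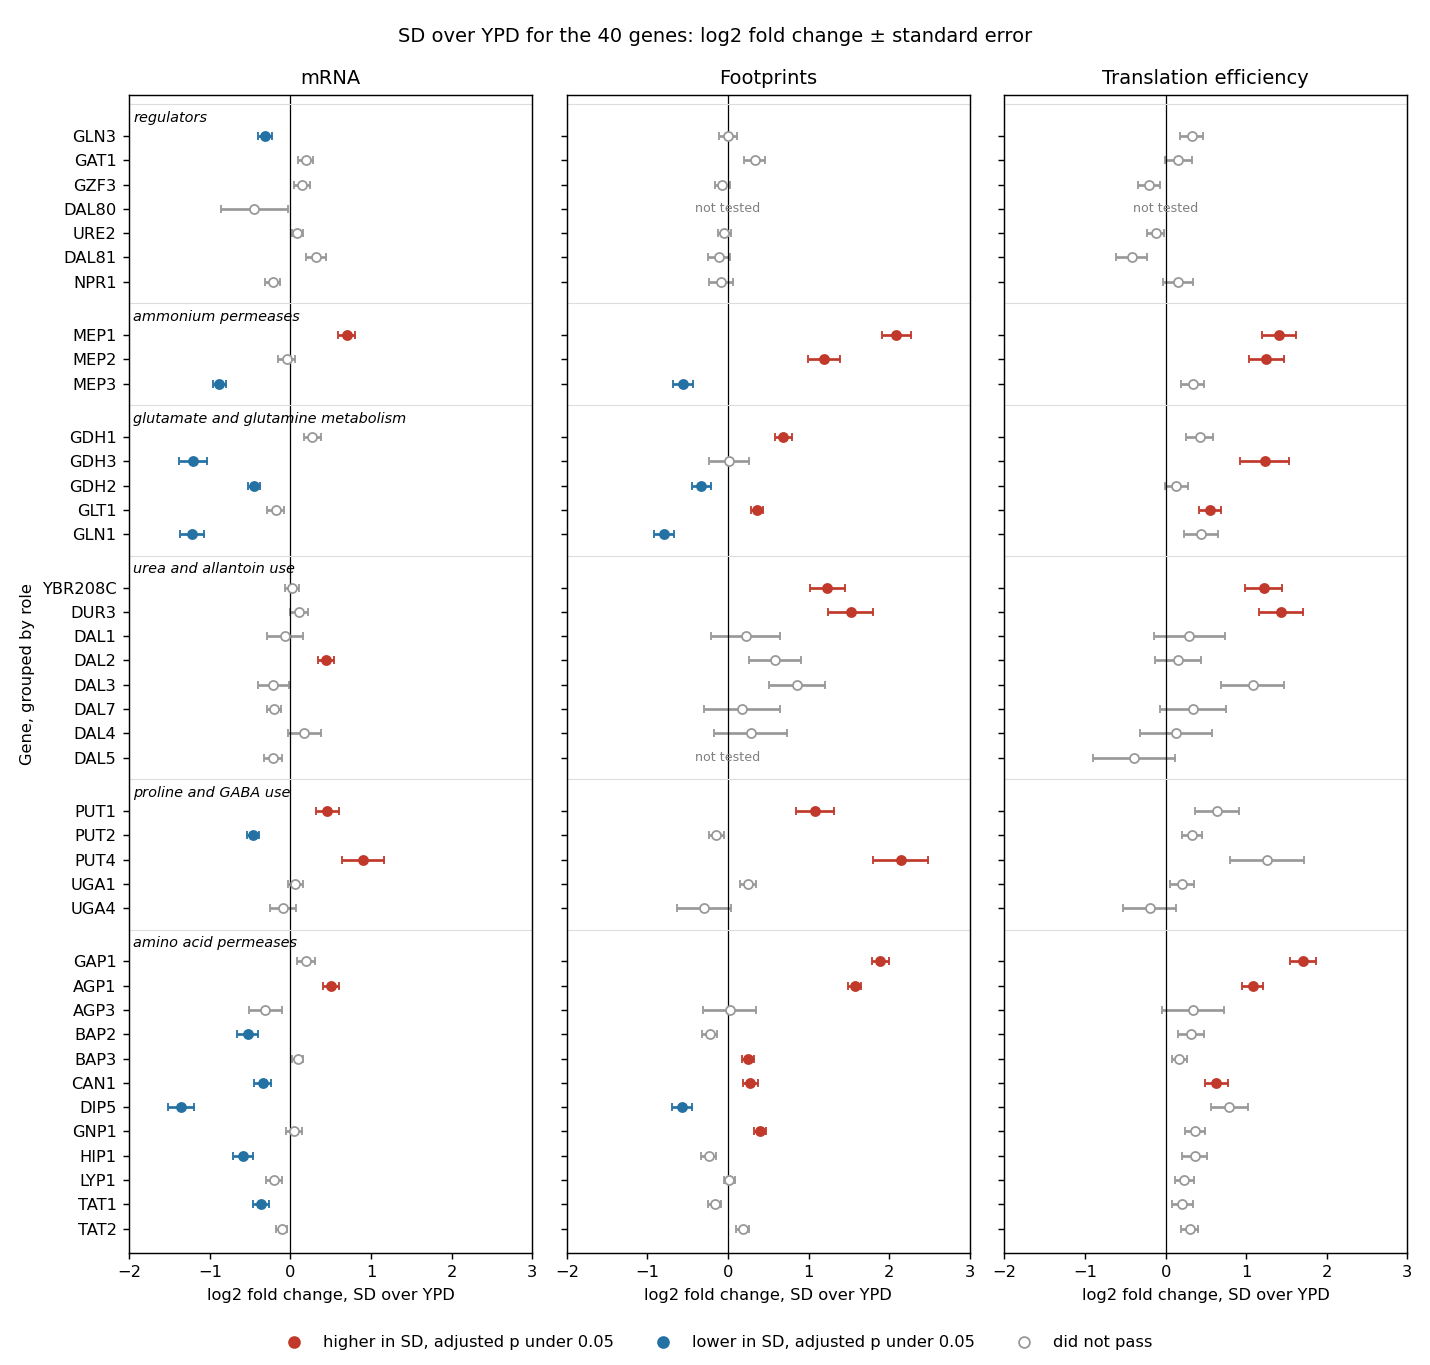
Log2 fold change of SD over YPD with its standard error for the 40 genes by role, in mRNA, footprints and translation efficiency (horizontal axes). Filled red points were higher and filled blue points lower in SD at an adjusted p under 0.05 (edgeR), open points did not pass, and "not tested" marks genes with too few counts. Red points number 5 in mRNA, 13 in footprints and 9 in translation efficiency.

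Of the 7 regulators, 6 were tested in footprints and none passed, whereas 1 of 7 passed in mRNA. GLN3 mRNA, for the GATA activator, had 59.1, 56.7, 47.3 and 56.3 CPM in SD, against 66.0, 78.1, 65.8, 61.1 and 67.6 CPM in YPD (log2 fold change -0.31, standard error 0.09, adjusted p = 0.0288, edgeR). The SD lysates all lay below the YPD lysates, although the call was lost on leaving out any of 7 of the 9 lysates (adjusted p up to 0.106). With strain as a term, leaving out either lysate of a mutant leaves its other lysate uninformative on medium, so such omissions are not separate checks. Its footprints, 31.0, 25.4, 27.8 and 33.3 CPM in SD against 30.0, 24.7, 32.3, 32.6 and 27.3 CPM in YPD, overlapped fully (-0.00, adjusted p = 0.979, edgeR).
GAT1, for the second activator, had 43.9, 35.6, 38.5 and 34.2 footprint CPM in SD, against 25.4, 30.1, 31.5, 36.2 and 26 CPM in YPD (0.33, standard error 0.13, adjusted p = 0.0771, edgeR), and passed without WT1 (0.39, adjusted p = 0.0259). Its mRNA had 70.2, 70.1, 72.4 and 73.9 CPM in SD and 64.8, 71.7, 59.6, 55.7 and 62.6 CPM in YPD (0.19, adjusted p = 0.148, edgeR). The ranges overlapped in both assays. GZF3, for the GATA repressor, had 35.1, 40, 44.8 and 37.7 footprint CPM in SD, against 43.6, 41.7, 43.7, 37.6 and 39.1 CPM in YPD (-0.07, adjusted p = 0.628, edgeR). URE2 footprints were level, with 69.6, 69.9, 66.4 and 71.0 CPM in SD against 77.6, 72.1, 63.0, 74.1 and 75.5 CPM in YPD (-0.04, adjusted p = 0.739, edgeR).
DAL80, for the repressor that is itself repressed by good nitrogen sources, was close to undetected: its mRNA had 0.92, 1.16, 0.72 and 0.94 CPM in SD, against 1.06, 1.05, 1.24, 0.86 and 2.59 CPM in YPD (-0.45, standard error 0.41, adjusted p = 0.457, edgeR). Of its mRNA reads 39.6% lay on the opposite strand. DAL81, an activator of allantoin and GABA genes, and NPR1, the kinase of permease control, did not pass in either assay.

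The ammonium permeases separated from each other. MEP1 footprints stood at 21.6, 23.5, 16.1 and 28.9 CPM in SD, against 4.65, 7.99, 2.72, 6.61 and 5.61 CPM in YPD, and the groups did not overlap (2.09, standard error 0.18, adjusted p = 9.73e-07, edgeR). MEP1 mRNA, at 47.6, 60.3, 37.3 and 63.1 CPM in SD against 29.6, 32.5, 29.3, 37.5 and 34.3 CPM in YPD, also rose (0.70, standard error 0.11, adjusted p = 0.00173, edgeR), but ΔΔtma20tma64 in SD lay below WT1. Reads on the opposite strand made up 44.4% of MEP1 mRNA reads (39.2% in SD, 51.4% in YPD), and with counts of both strands the mRNA change was 0.36 (adjusted p = 0.0278, edgeR). MEP1 translation efficiency rose by 1.40 (standard error 0.21, adjusted p = 0.000561, edgeR).
MEP2 encodes the permease of highest affinity, which also signals ammonium limitation. Its footprints had 7.02, 14.8, 9.75 and 15.3 CPM in SD, against 4.29, 4.86, 4.86, 7.50 and 5.61 CPM in YPD (1.19, standard error 0.20, adjusted p = 0.000696, edgeR), and only Δtma20 in SD overlapped the YPD range. MEP2 mRNA was much the same, with 38.0, 44.7, 42.0 and 40.2 CPM in SD against 37.9, 38.2, 46.7, 50.2 and 42.4 CPM in YPD (-0.05, adjusted p = 0.783, edgeR), and its translation efficiency rose by 1.25 (standard error 0.22, adjusted p = 0.0022, edgeR). Without both shallowest footprint lysates the translation efficiency calls of MEP1 (1.33, adjusted p = 0.0746) and MEP2 (1.29, adjusted p = 0.0667) were lost.
MEP3, for the permease of lower affinity, went down. Its mRNA had 65.2, 76.8, 79.8 and 75.0 CPM in SD, against 129, 150, 143, 134 and 122 CPM in YPD (-0.88, standard error 0.08, adjusted p = 3.55e-05, edgeR). MEP3 footprints, at 13.5, 23.7, 22.5 and 27.2 CPM in SD against 23.5, 37.5, 36.1, 31.7 and 27.7 CPM in YPD, fell by 0.56 on the log2 scale (adjusted p = 0.00484, edgeR). That footprint call was lost with medium as the only term (-0.48, adjusted p = 0.0605, edgeR). All 3 genes carry several GATAAG copies, and MEP3 moved opposite to MEP1 in both assays.

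**Figure D3:**
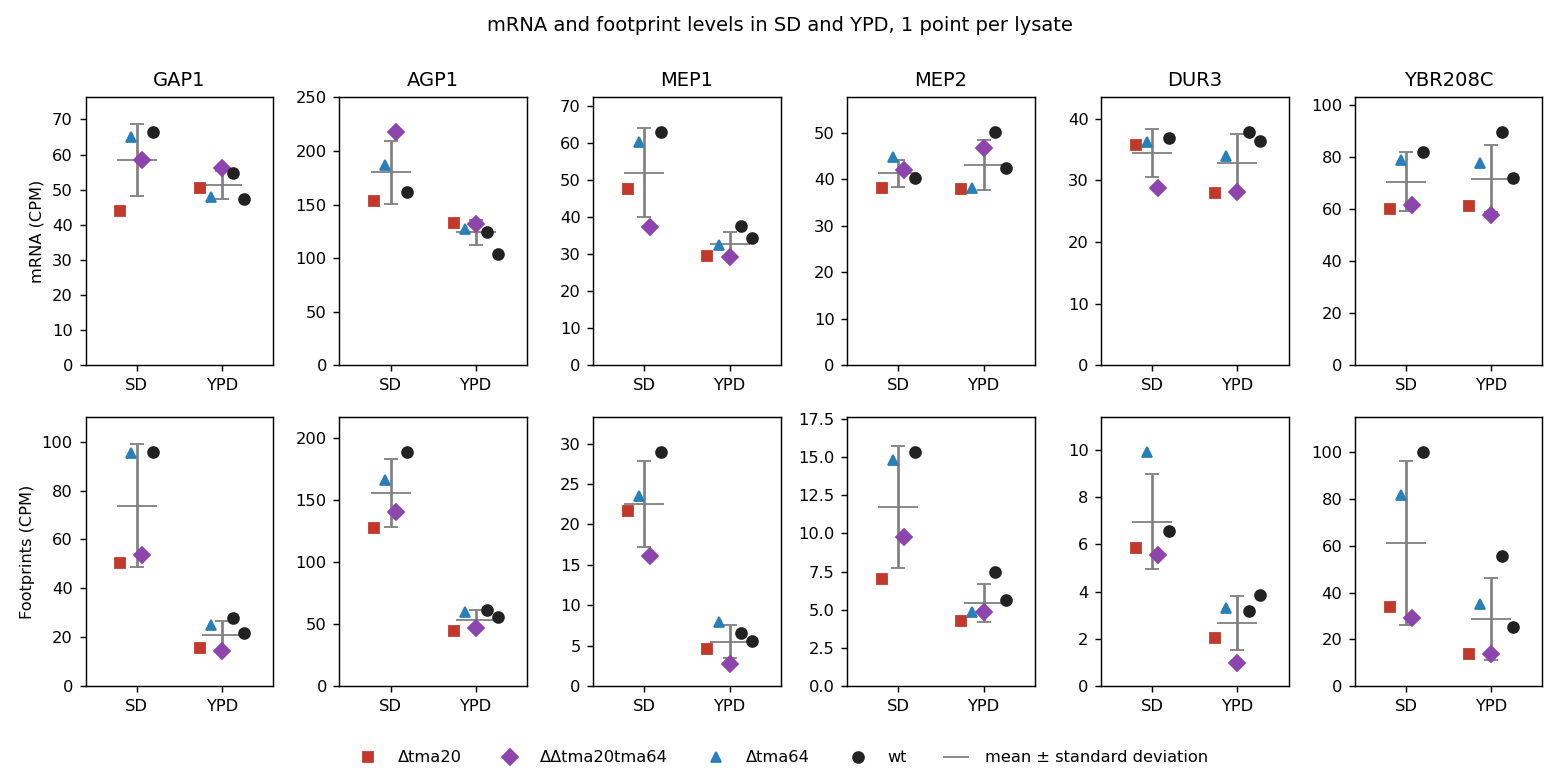
mRNA (top) and footprint (bottom) levels in CPM of GAP1, AGP1, MEP1, MEP2, DUR3 and YBR208C, with SD left of YPD, 1 point per lysate and the mean ± standard deviation in grey (n = 4 SD and 5 YPD lysates). In footprints GAP1, AGP1, MEP1 and DUR3 in SD lie wholly above YPD, whereas the mRNA of GAP1, MEP1, MEP2, DUR3 and YBR208C overlaps between media.

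Genes of glutamate and glutamine metabolism divided by enzyme. GLN1 mRNA was 920, 1100, 616 and 976 CPM in SD, against 1940, 2170, 2350, 1950 and 1930 CPM in YPD (-1.22, standard error 0.15, adjusted p = 0.000356, edgeR). GLN1 footprints fell less, with 912, 1180, 761 and 1100 CPM in SD against 1700, 1390, 1800, 1930 and 1860 CPM in YPD (-0.79, standard error 0.13, adjusted p = 0.00103, edgeR). Neither assay overlapped between media. The footprint call was lost without both shallowest lysates (-0.74, adjusted p = 0.236, edgeR), and the difference in translation efficiency (0.44) passed only with the lysate as a block (adjusted p = 0.226 without and 0.0322 with it, edgeR).
GDH1 footprints, at 600, 860, 695 and 1200 CPM in SD against 482, 563, 467, 530 and 605 CPM in YPD, rose by 0.69 (standard error 0.11, adjusted p = 0.000596, edgeR). Its mRNA did not pass (0.27, adjusted p = 0.0942, edgeR), and its translation efficiency (0.42) passed only with the lysate as a block (adjusted p = 0.125 without and 0.0223 with it, edgeR). GLT1, glutamate synthase, had the highest ratio of footprints to mRNA among the 38 genes. That ratio was 2.70, 2.84, 2.52 and 2.93 in SD, against 1.78, 2.36, 1.64, 1.77 and 2.01 in YPD (translation efficiency 0.55, standard error 0.13, adjusted p = 0.0176, edgeR). Its footprints were 701, 827, 703 and 759 CPM in SD and 543, 660, 526, 653 and 558 CPM in YPD, without overlap (0.36, adjusted p = 0.0037, edgeR), but the call in translation efficiency was lost on leaving out any of 5 lysates (adjusted p up to 0.117).
GDH3, the second glutamate dehydrogenase that fixes ammonium, had less mRNA in SD, at 17.8, 28.8, 18.6 and 23.2 CPM against 44.6, 42.4, 61.8, 60.1 and 47.9 CPM in YPD (-1.21, standard error 0.17, adjusted p = 0.000856, edgeR). Its footprints, 5.26, 6.39, 2.75 and 8.33 CPM in SD against 4.41, 5.39, 4.47, 6.87 and 6.89 CPM in YPD, overlapped (0.01, adjusted p = 0.977, edgeR). The rise of its translation efficiency (1.23, standard error 0.31, adjusted p = 0.0203, edgeR) thus came with a fall in mRNA, and was lost on leaving out Δtma20 in either medium or wt in SD (adjusted p up to 0.103). Reads on the opposite strand were 40.4% of GDH3 mRNA reads, and with counts of both strands the mRNA change was -0.70.
GDH2, which breaks glutamate down, had 134, 159, 135 and 143 mRNA CPM in SD, against 193, 196, 200, 188 and 195 CPM in YPD, without overlap (-0.45, standard error 0.07, adjusted p = 0.00212, edgeR). Its footprints fell by 0.33 on the log2 scale (adjusted p = 0.0488, edgeR), a call lost with DESeq2, without both shallowest lysates and in 7 of 9 omissions of a single lysate.

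In the urea and allantoin group, both urea genes passed in footprints, none of the 5 allantoin genes tested did, and DAL5 was not tested. YBR208C encodes urea amidolyase, which splits urea to ammonium. Its footprints stood at 33.9, 81.6, 29.0 and 100 CPM in SD, against 13.6, 35.1, 13.6, 55.8 and 25.5 CPM in YPD (1.23, standard error 0.22, adjusted p = 0.00534, edgeR). The media overlapped, because lysates without TMA20 were low in each medium. YBR208C mRNA had 60.1, 78.9, 61.7 and 82.2 CPM in SD and 61.4, 77.7, 58.0, 89.9 and 72.0 CPM in YPD (0.02, adjusted p = 0.863, edgeR), and translation efficiency rose by 1.22 (standard error 0.23, adjusted p = 0.00434, edgeR). Without wt in SD the footprint change was 1.202 (adjusted p = 0.132) and that in translation efficiency 1.19 (adjusted p = 0.0561, edgeR). Both calls were also lost without both shallowest lysates (footprints 1.17, adjusted p = 0.378, and translation efficiency 1.12, adjusted p = 0.305), and the footprint call with medium as the only term (1.07, adjusted p = 0.228, edgeR).
DUR3, the urea transporter gene, had 5.85, 9.89, 5.55 and 6.58 footprint CPM in SD, against 2.03, 3.30, 0.97, 3.18 and 3.85 CPM in YPD, without overlap (1.52, standard error 0.28, adjusted p = 0.00127, edgeR). DUR3 had few footprint counts, with 10, 130, 145 and 15 in SD and 17, 19, 5, 25 and 24 in YPD. Its mRNA overlapped, at 35.8, 36.3, 28.7 and 36.9 CPM in SD against 28, 33.9, 28.1, 37.9 and 36.4 CPM in YPD (0.10, adjusted p = 0.531, edgeR). The change in translation efficiency was 1.43 (standard error 0.27, adjusted p = 0.0034, edgeR).
DAL1 to DAL4 and DAL7 lie near each other on chromosome IX and encode allantoinase (DAL1), allantoicase (DAL2), ureidoglycolate lyase (DAL3), the allantoin permease (DAL4) and a malate synthase (DAL7). In mRNA only DAL2 of the 8 urea and allantoin genes passed (0.44, standard error 0.10, adjusted p = 0.0121, edgeR), with 48.7, 46.2, 66.6 and 45.9 CPM in SD against 34.2, 31.6, 50, 40.5 and 32.2 CPM in YPD. The footprint changes of the 5 genes lay between 0.18 (DAL7) and 0.85 (DAL3, adjusted p = 0.0904, edgeR), each with a standard error of 0.32 or more.

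Of the proline genes, 2 of 3 rose in SD. PUT4, the proline permease gene, had 7.60, 5.17, 8.91 and 3.51 footprint CPM in SD, against 0.95, 1.56, 1.36, 1.78 and 0.96 CPM in YPD, without overlap (2.14, standard error 0.34, adjusted p = 0.000426, edgeR). These footprint values rest on few reads, with 13, 68, 233 and 8 counts in SD and 8, 9, 7, 14 and 6 in YPD. PUT4 mRNA rose by 0.90 (standard error 0.26, adjusted p = 0.0294, edgeR), with 12.5, 8.79, 20.4 and 6.28 CPM in SD and 4.43, 5.25, 7.60, 6.10 and 5.69 CPM in YPD. In mRNA wt in SD overlapped the YPD range, and the call was lost on leaving out any mutant lysate (adjusted p up to 0.134). Its translation efficiency change of 1.26 passed only with the lysate as a block (adjusted p = 0.0997 without and 0.0448 with it, edgeR). PUT4 has no GATAAG in its window.
PUT1, for proline dehydrogenase, had 9.36, 11.6, 9.49 and 12.3 footprint CPM in SD, against 3.10, 4.00, 7.0, 6.87 and 4.65 CPM in YPD (1.08, standard error 0.24, adjusted p = 0.00429, edgeR). Its mRNA had 16.3, 21.0, 19.8 and 23.7 CPM in SD and 13.5, 14.5, 15.4, 15.8 and 15.5 CPM in YPD (0.46, standard error 0.14, adjusted p = 0.039, edgeR). Neither assay overlapped, but reads on the opposite strand were 28.3% of PUT1 mRNA reads, and the mRNA call was lost with counts of both strands (0.19, adjusted p = 0.293) and on leaving out any lysate other than WT1 (adjusted p up to 0.166, edgeR).
PUT2, for the next enzyme of the path, went the other way in mRNA, with 88.6, 98.2, 96.1 and 97.4 CPM in SD against 120, 143, 143, 117 and 130 CPM in YPD (-0.46, standard error 0.08, adjusted p = 0.00222, edgeR). The GABA genes UGA1 (transaminase) and UGA4 (permease) did not pass in mRNA, footprints or translation efficiency.

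Among the amino acid permeases, GAP1 differed between assays. GAP1 footprints were 50.3, 95.5, 53.7 and 95.6 CPM in SD, against 15.5, 25.0, 14.2, 27.7 and 21.8 CPM in YPD, with means of 73.8 ± 25.2 and 20.8 ± 5.89 CPM (standard deviation, n = 4 SD and 5 YPD lysates). No SD lysate reached the YPD range (1.89, standard error 0.10, adjusted p = 8.74e-09, edgeR). GAP1 mRNA had 44.0, 65.0, 58.4 and 66.5 CPM in SD and 50.6, 47.8, 56.1, 54.7 and 47.4 CPM in YPD, and the groups overlapped (0.19, standard error 0.11, adjusted p = 0.247, edgeR). The ratio of footprints to mRNA was 1.14, 1.47, 0.92 and 1.44 in SD against 0.31, 0.52, 0.25, 0.51 and 0.46 in YPD, and translation efficiency rose by 1.71 (standard error 0.16, adjusted p = 3.76e-06, edgeR). Both GAP1 calls held in every setting tried.
AGP1, a broad permease induced by external amino acids, rose in both assays. Its footprints had 127, 166, 140 and 188 CPM in SD, against 44.4, 59.4, 47.0, 61.3 and 55.6 CPM in YPD (1.57, standard error 0.08, adjusted p = 5.43e-09, edgeR). AGP1 mRNA had 153, 187, 218 and 162 CPM in SD against 133, 127, 132, 124 and 104 CPM in YPD (0.50, standard error 0.10, adjusted p = 0.00459, edgeR). Neither overlapped, and translation efficiency rose by 1.08 (standard error 0.13, adjusted p = 4.30e-05, edgeR).
DIP5, the permease gene for acidic amino acids, fell the most in mRNA, with 216, 277, 146 and 251 CPM in SD against 485, 640, 659, 488 and 536 CPM in YPD (-1.36, standard error 0.16, adjusted p = 0.000327, edgeR). DIP5 footprints were 188, 300, 134 and 255 CPM in SD and 247, 374, 303, 356 and 332 CPM in YPD, with overlap (-0.57, standard error 0.13, adjusted p = 0.00625, edgeR). The footprint call was lost without both shallowest lysates (-0.75, adjusted p = 0.0738) and with medium as the only term (-0.55, adjusted p = 0.0918, edgeR). Its translation efficiency change of 0.79 lay at the threshold (adjusted p = 0.0553, edgeR). It passed with the lysate as a block (adjusted p = 0.000165), with deletions as additive terms (0.0451), with counts of both strands (0.0497), with DESeq2 (0.0119) and without ΔΔtma20tma64 in SD (0.00311) or in YPD (0.00211).
The arginine permease gene CAN1 had 125, 138, 130 and 173 footprint CPM in SD and 113, 124, 120, 113 and 117 CPM in YPD (0.28, adjusted p = 0.0427, edgeR), with 90.5, 90.5, 69.8 and 95.9 mRNA CPM in SD and 102, 119, 119, 102 and 106 CPM in YPD (-0.34, adjusted p = 0.037, edgeR). The directions were opposite, without overlap in either, but each call was lost in 7 of 9 omissions of a single lysate, and that in footprints also with DESeq2, with medium as the only term and without both shallowest lysates. CAN1 translation efficiency rose (0.63, standard error 0.15, adjusted p = 0.0135, edgeR). That call was lost without ΔΔtma20tma64 in SD (0.52, adjusted p = 0.0537, edgeR) and without both shallowest lysates (0.73, adjusted p = 0.055, edgeR).
HIP1, the histidine permease gene, had 187, 222, 161 and 203 mRNA CPM in SD, against 268, 256, 345, 315 and 283 CPM in YPD (-0.59, standard error 0.12, adjusted p = 0.00675, edgeR). BAP2, for branched-chain amino acids, had 653, 649, 534 and 710 mRNA CPM in SD against 888, 903, 1110, 767 and 933 CPM in YPD (-0.53, standard error 0.13, adjusted p = 0.0141, edgeR). TAT1, a permease gene for tyrosine and branched-chain amino acids, also fell in mRNA (-0.36), and none of these 3 passed in footprints. GNP1 (0.40) and BAP3 (0.25) rose in footprints without passing in mRNA, and the BAP3 call was lost in 7 of 9 omissions of a single lysate and that of TAT1 mRNA in 4. AGP3, LYP1 and TAT2 passed in neither assay.

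The letters upstream and the calls were set side by side as a description. Of the genes with 2 or more GATAAG copies, 8 of 18 tested were higher in SD in footprints (44.4%), against 3 of 14 with none (21.4%). Among genes of the series outside these 40, 19.0% of 168 with 2 or more copies and 14.2% of 4112 with none were higher. In translation efficiency 8 of the 9 genes called higher carry 2 or more copies, 8 of 19 tested (42.1%), against 0 of 14 with none, while outside the 40 genes the shares were 6.29% of 175 and 5.11% of 4386. In mRNA 3 of 20 genes with 2 or more copies were higher and 3 lower (15.0% each), close to the 16% higher and 14.3% lower of 175 such genes outside the 40, and of 14 genes with none 1 was higher and 6 were lower (42.9%).

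Ratios of footprints to mRNA spanned the range of the whole transcriptome. The median over 9 lysates was 0.53 for all 5367 genes tested in both assays, and GLT1, at 2.36, stood at the 98.2 percentile. GDH1 (1.61), GNP1 (1.33), PUT2 (1.22) and CAN1 (1.11) followed. At the other end DAL7 had a ratio of 0.01 (percentile 0.28), DAL2 0.06 and DAL3 0.08, and DUR3, at 0.11, stood at the 2.46 percentile. DAL7 mRNA was not scarce, at 131, 127, 149 and 110 CPM in SD and 155, 120, 165, 154 and 141 CPM in YPD, whereas its footprints were 0.64 to 5.26 CPM. The same held for DAL5, whose mRNA was 51.7 to 83.9 CPM and whose footprints were 0.15 to 1.67 CPM. GAP1 lay at the 48.6 percentile and AGP1 at 50.1.

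**Figure D4:**
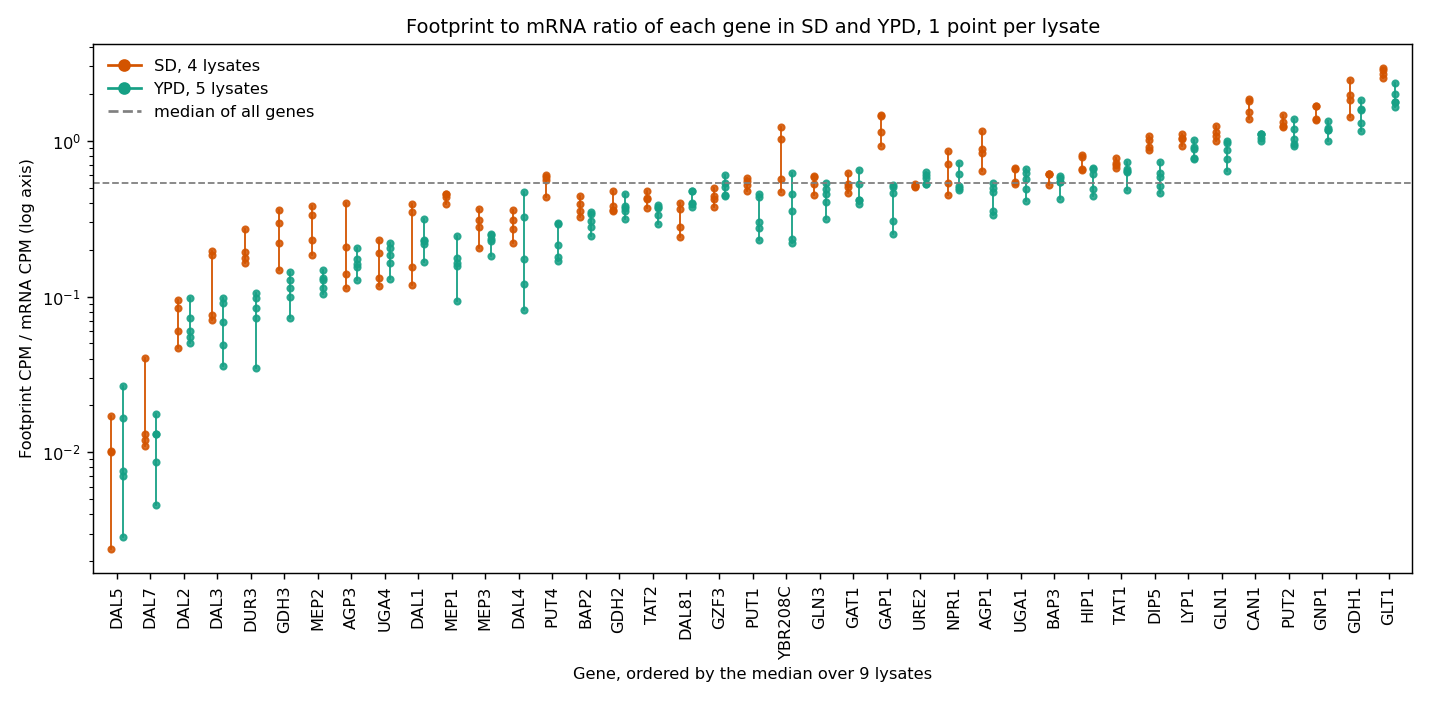
Footprint CPM divided by mRNA CPM (log axis) for 39 genes ordered by the median over 9 lysates, with SD lysates left of YPD lysates for each gene. The dashed line is the median of all genes, 0.53. DAL5 and DAL7 lie lowest and GLT1 highest, and for GAP1, AGP1, MEP1 and DUR3, among others, every SD point lies above every YPD point.

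Some of the genes that rose in SD (YBR208C, GAP1 and AGP1) had fewer footprints in the lysates without TMA20. So did DIP5, which fell in SD, and DAL1, which did not pass between media. Without TMA20, 5 of 38 genes had fewer footprints and 1 had more, where 2.37% of all 5369 genes were lower, 1.58% higher and 3.95% either (edgeR, adjusted p under 0.05). The median log2 fold change was -0.10, against -0.00 for all genes. Within SD and within YPD alike, every lysate without TMA20 was below every lysate with it for 12 of 38 genes (7.02% of all), and above for 1, LYP1 (6.28% of all). The 12 were GDH3, YBR208C, AGP1, GLT1, MEP1, DUR3, DAL1, DAL3, GAP1, MEP2, GDH1 and DIP5. Some of these separations rest on few reads. DAL3 had 2 counts in Δtma20 in SD and 4 in ΔΔtma20tma64 in YPD, and DUR3 had 10 and 5. Without both shallowest footprint lysates only GAP1 passed, being lower, where 1.19% of all genes were lower and 0.819% higher.
YBR208C footprints stood at 33.9 CPM in Δtma20 and 29.0 CPM in ΔΔtma20tma64, against 81.6 CPM in Δtma64 and 100 CPM in wt, all in SD. In YPD they were 13.6 CPM in both strains without TMA20, against 35.1 CPM in Δtma64 and 55.8 and 25.5 CPM in WT1 and WT2 (-1.51, standard error 0.20, adjusted p = 0.00599, edgeR). The replicates of wt thus differed from each other by more than WT2 differed from the mutants, and yet the groups stayed apart. The call held on leaving out each lysate (adjusted p up to 0.0354) and was lost in YPD alone (-1.50, adjusted p = 0.0879), in SD alone (-1.53, adjusted p = 0.0682) and without both shallowest lysates (-1.50, adjusted p = 0.103, edgeR).
YBR208C mRNA also lay lower without TMA20 in each medium, at 60.1 and 61.7 CPM without it against 78.9 and 82.2 CPM with it in SD, and at 61.4 and 58.0 CPM without it against 77.7, 89.9 and 72.0 CPM with it in YPD (-0.41, standard error 0.08, adjusted p = 0.21 from edgeR, 0.00949 from DESeq2). Its translation efficiency had a change of -1.11 (standard error 0.22, adjusted p = 0.0908, edgeR), which passed with the lysate as a block (-1.09, adjusted p = 0.0159), without WT1 (-1.02, adjusted p = 0.00825) and without WT2 (-1.18, adjusted p = 0.00315, edgeR).
GAP1 footprints had 50.3 and 53.7 CPM in Δtma20 and ΔΔtma20tma64 in SD, against 95.5 and 95.6 CPM in Δtma64 and wt. In YPD they had 15.5 and 14.2 CPM without TMA20 against 25.0, 27.7 and 21.8 CPM with it (-0.81, standard error 0.10, adjusted p = 0.00185, edgeR). The call held in each medium alone and on leaving out any lysate. GAP1 mRNA did not separate (-0.13, adjusted p = 0.779, edgeR), with a value of 0.07 in YPD alone. Its translation efficiency had -0.68 (adjusted p = 0.21 from edgeR, 0.0688 with the lysate as a block and 0.0496 from DESeq2).
AGP1 footprints had 127 and 140 CPM without TMA20 in SD, against 166 and 188 CPM with it, and 44.4 and 47.0 CPM without it in YPD, against 59.4, 61.3 and 55.6 CPM with it (-0.38, standard error 0.09, adjusted p = 0.0278, edgeR). DIP5 footprints had 188 and 134 CPM without TMA20 in SD, against 300 and 255 CPM with it, and 247 and 303 CPM without it in YPD, against 374, 356 and 332 CPM with it (-0.57, standard error 0.13, adjusted p = 0.0278, edgeR). Each of these calls was lost on leaving out any of 5 lysates (adjusted p up to 0.102).
DAL1 had the largest change, but on few reads. Its footprints were 0.58 and 0.46 CPM without TMA20 in SD, against 2.51 and 3.07 CPM with it, and 1.19 and 0.58 CPM without it in YPD, against 2.08, 1.78 and 1.76 CPM with it (-1.68, standard error 0.42, adjusted p = 0.0373, edgeR). These values rest on 1 and 12 counts without TMA20 in SD, against 33 and 7 with it, and on 10 and 3 counts without it in YPD, against 12, 14 and 11 with it, and the call was lost on leaving out any of 6 lysates and with counts of both strands (-1.09, adjusted p = 0.111, edgeR). Of DAL1 mRNA reads 56.0% lay on the opposite strand. LYP1, the lysine permease gene, was the gene that rose, with 274 and 284 CPM without TMA20 in SD against 236 and 231 CPM with it, and 275 and 290 CPM without it in YPD against 231, 220 and 221 CPM with it (0.29, standard error 0.07, adjusted p = 0.0373, edgeR). That call was lost on leaving out any of 7 lysates (adjusted p up to 0.125).

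**Figure D5:**
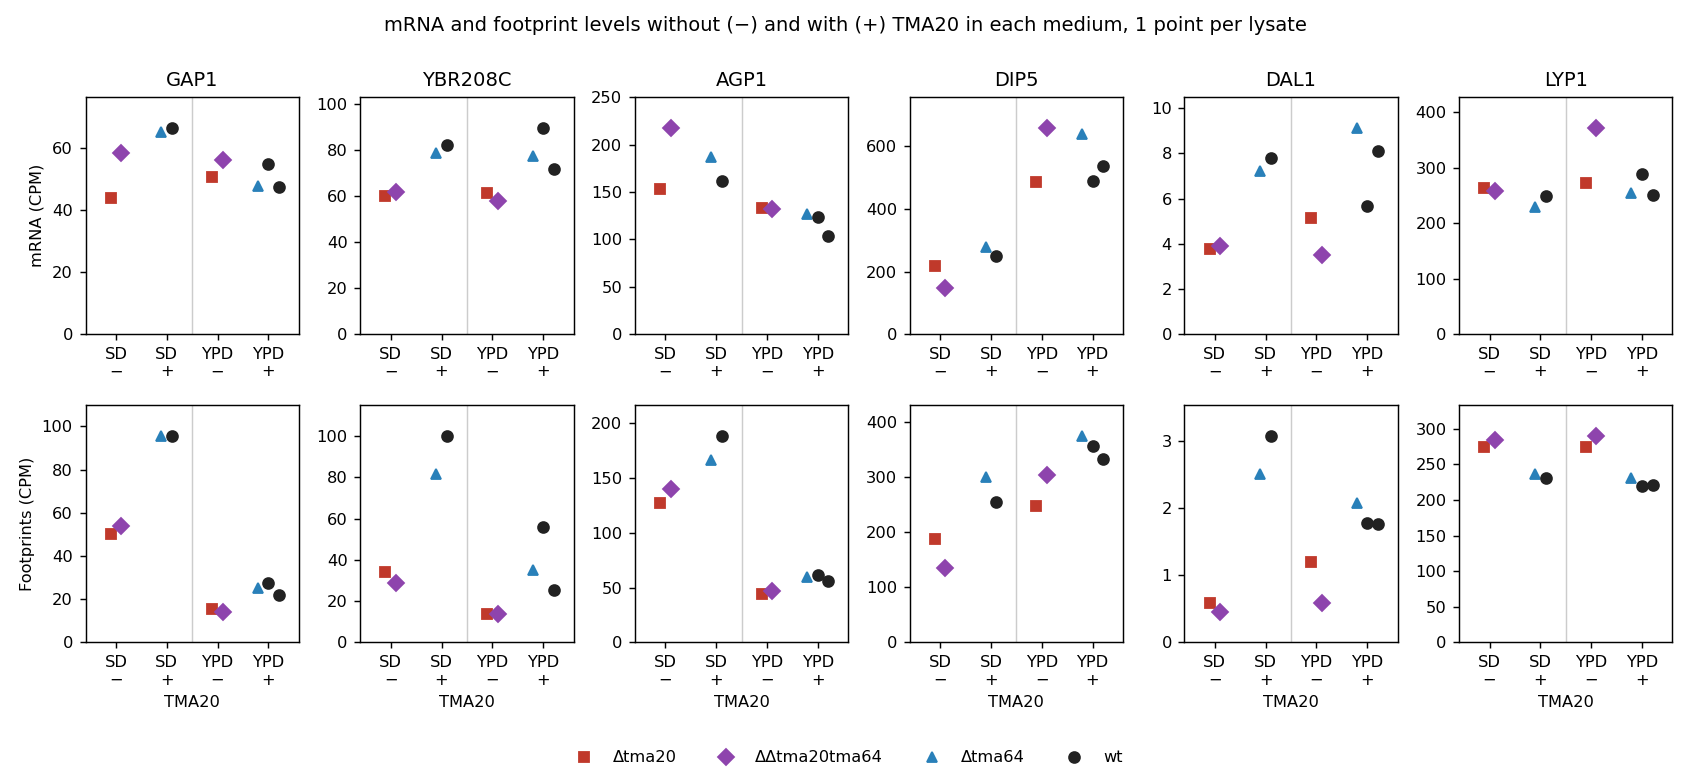
mRNA (top) and footprint (bottom) levels in CPM of GAP1, YBR208C, AGP1, DIP5, DAL1 and LYP1 without (−) and with (+) TMA20 in SD and in YPD, 1 point per lysate. In footprints the lysates without TMA20 lie below those with it in each medium for the first 5 genes and above them for LYP1.

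With all lysates and no block, no gene passed in mRNA or in translation efficiency for loss of TMA20 with edgeR, where 0.0335% of all genes were lower and 0.0503% higher in mRNA (0.0838% either), and 0.0505% lower and 0.0168% higher in translation efficiency (0.0674% either). In mRNA the lysates without TMA20 lay below those with it in each medium for 4 of 40 genes, YBR208C, MEP1, DUR3 and DAL1 (3.87% of all), and above for 2, DAL7 and TAT2 (3.77% of all). At an unadjusted p under 0.05 there were 7 of 40 genes in mRNA (10.1% of all genes) and 10 of 39 in translation efficiency (7.06% of all genes). DESeq2 called YBR208C in mRNA, where 0.386% of all genes were lower, and YBR208C and GAP1 in translation efficiency, where 0.281% were lower, all in that direction. None of the 6 regulators tested in footprints passed for loss of TMA20. The log2 fold changes were 0.11 for GLN3, 0.01 for GAT1, 0.11 for GZF3 and -0.05 for URE2 (adjusted p of 0.557 or more, edgeR), and that of GAT1 was negative in YPD alone (-0.14), with counts of both strands (-0.03) and without both shallowest lysates (-0.06). MEP2 had -0.58 (adjusted p = 0.105, edgeR). Whether the TMA20 difference itself differed between media was tested as an interaction, which passed for no gene (0.0373% of all genes higher and 0.0745% lower in footprints, 0% in mRNA with edgeR), with 3 of 38 in footprints and 1 of 40 in mRNA at an unadjusted p under 0.05 (5.31% and 2.18% of all genes).
For loss of TMA64 none of the genes passed in mRNA, footprints or translation efficiency with edgeR or DESeq2. With edgeR 0.0168%, 0.0559% and 0.0168% of all genes tested were called there, all lower. At an unadjusted p under 0.05 there were 4 of 40 genes in mRNA, 2 of 38 in footprints and 1 of 39 in translation efficiency, where 2.23%, 5.22% and 2.26% of all genes had such a p. The footprint medians were 0.007 for these genes and 0.005 for all genes.

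Other lists of nitrogen genes, none of them members, were counted in the same way. Of all genes tested, 14.3% were higher and 11.3% lower in SD footprints (25.5% either), and 14.1% and 11.9% in SD mRNA (26% either). In SD translation efficiency 5.04% were higher and 2.41% lower (7.45% either), and in TMA20 footprints 1.58% and 2.37%. The lists were not tested as sets, and the genes below are named as single calls. Of 7 other amino acid and peptide permease genes, SAM3 (log2 fold change 1.62), MMP1 (0.95) and MUP1 (0.82), which import S-adenosylmethionine, S-methylmethionine and methionine, had more footprints in SD and the peptide transporter gene PTR2 fewer (-0.68), and none passed in translation efficiency. In mRNA SAM3 (1.184) and MUP1 (0.80) also rose, and PTR2 (-1.26) and MUP3 (-0.71) fell, among 3 higher and 2 lower. Of 16 genes of other nitrogen catabolism and its activators, 4 were higher in footprints in SD, among them CAR1 (arginase, 0.94), UGA2 (GABA breakdown, 0.59) and UGA3 (0.44), and 1 was lower, BAT2 (branched-chain aminotransferase, -2.16). In mRNA 4 rose and 3 fell, with BAT2 (-1.91), ARO9 (-1.17), ARO10 (-1.02) and UGA2 (0.60) the largest. ARO9 (1.08) and ARO10 (0.94), of aromatic amino acid breakdown, had higher and ASP1 (-0.42) lower translation efficiency. Without TMA20, ARO9 (0.59) and ARO10 (0.35) had more and UGA2 (-0.59) and BAT2 (-0.58) fewer footprints.
Of 6 genes of the SPS sensor and permease transcription, 1 rose and 3 fell in mRNA (SSY5 -0.52, PTR3 0.33, STP1 -0.29 and SSY1 -0.24), 1 fell in footprints (GRR1 -0.39) and none passed in translation efficiency. Of 14 genes of permease sorting and TORC1 signalling, PAR32 rose (0.53) and BUL2 (-0.48) and ECM21 (-0.35) fell in footprints, 2 rose and 2 fell in mRNA (ECM21 -0.56, RSP5 -0.47, ALY2 0.29 and TAP42 0.28), and SIT4 (0.56) and RSP5 (0.53) rose in translation efficiency. Median footprint changes of the 4 lists ran between -0.09 and 0.82, against 0.20 for the 40 genes. Neither of the last pair of lists nor the permease list held a call for loss of TMA20.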

How the data were processed

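The authors trimmed reads with cutadapt 1.18, and used STAR 2.5.3a both to map them to R64-1-1 (Ensembl) and to count those with a single location per gene. No normalization was applied to the deposited counts, of which those on each gene's own strand entered the tests. Multimapped reads are absent. In 28-nt windows, 98.0% or more of each member's coding sequence was unique. Rows that are no open reading frame (413) were left out, and reads on no feature were a median of 23.6% in RNA-Seq and 1.09% in Ribo-Seq.

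Open reading frames were filtered (filterByExpr, minimum count 10), scaled by TMM and compared by edgeR 4.0.16 (robust quasi-likelihood test, R 4.3.3) with Benjamini-Hochberg adjustment over all genes tested and a threshold of 0.05. Media were compared with strain as a term, and TMA20 and TMA64 loss with both deletions and medium as terms. Translation efficiency was the interaction with assay over 18 libraries. Standard errors come from the log2 fold change and F. The script was tested on simulated data. Alternatives were RLE scaling, no filter, counts of both strands, DESeq2 1.42.0, other terms, single media, the lysate as block, and leaving out each lysate. For SD against YPD, omitting a mutant's SD lysate or its YPD lysate removes the same comparison. Tallies of omissions between media thus count each mutant in both media. Both assays of a lysate are paired, since the paper states that they are portions of it. As a check, residuals of the assays correlated within a lysate (0.0682 to 0.303 over 5367 genes), and 4 lysates correlated more with another one. Strain and medium were terms, so the SD and YPD residuals of a mutant mirror each other. The check therefore cannot tell a mutant's SD lysate from its YPD lysate, and Δtma64 is counted in both media.

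Coordinates and upstream sequences come from RefSeq of the same assembly, R64 (6013 of 6713 open reading frames matched). The members and lists were chosen with earlier results of these data known. Values of each lysate are given for up to 12 genes with the largest change among those called in SD against YPD mRNA, in SD against YPD footprints and in TMA20 loss footprints, for every gene called in another comparison, and for GLN3, GAT1, GZF3, DAL80, URE2, GAP1 and MEP2. Of each other list up to 4 called genes are named per comparison. Some counts, ratios and the values of DAL7 were added after they were seen.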

Additional observations from a re-analysis of the deposited data

Results flagged for a closer look

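Within groups of 4 or 5 lysates, 2 of 104 sets of values held a lysate far from the rest, where chance gives about 1 in 20. DUR3 mRNA was 28.7 CPM in ΔΔtma20tma64 in SD, with the next value at 35.8 CPM. DAL80 mRNA was 2.59 CPM in WT2 in YPD, with the next at 1.24 CPM, on few counts.

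Counts on the opposite strand entered the comparisons above only where counts of both strands are named. They made up 7.28% to 9.27% of RNA-Seq counts in whole libraries, and more than that for 10 of the 40 genes (25.0%, against 21.9% of all genes tested). The shares of mRNA reads were 70% for DAL4, 56.0% for DAL1, 44.4% for MEP1, 40.4% for GDH3, 39.6% for DAL80, 36.1% for UGA4, 28.3% for PUT1, 24.1% for PUT4, 13.6% for MEP3 and 11% for AGP3. Between media the share was 53.0% in SD and 32.2% in YPD for GDH3, and 20.3% in SD and 9.18% in YPD for MEP3, while it was 39.2% in SD and 51.4% in YPD for MEP1. No test was run on these shares.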

How the results depend on the processing

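Apart from leaving out single lysates, 109 of 120 counts of called genes stayed within 1.5 times the reported one. The exceptions were as follows. With medium as the only term, 2 genes were lower in SD footprints (8.49% of all genes). Without both shallowest footprint lysates, 1 was lower in SD footprints (4.8% of all genes) and 3 were higher in SD translation efficiency (1.07%). For TMA20 footprints 0 were then higher and 1 lower (0.819% and 1.19% of all genes). In YPD alone TMA20 footprints gave 0 higher and 1 lower (0.335% and 0.54% of all genes), and in SD alone 0 higher (0.373%). DESeq2 gave 1 lower in TMA20 mRNA (0.386% of all genes) and 2 lower in TMA20 translation efficiency (0.281%). Within the 1.5-fold limit, DESeq2 also gave 7 lower in TMA20 footprints (3.61% of all genes), adding GDH1 and MEP1. GDH1 was called lower there in SD alone, with no filter and without WT1 as well. With the lysate as a replicate block TMA20 translation efficiency gave 1 lower, YBR208C (0.0505% of all genes). SD translation efficiency gave 13 higher (7.06% of all genes) instead of 9. The block thus changed 5 calls, all named above, and no other call. Leaving out single lysates gave 3 to 5 higher and 8 to 12 lower genes in SD mRNA (7.64% to 17.9% and 6.32% to 15.4% of all genes). In SD footprints it gave 11 to 14 higher and 3 to 6 lower (9.89% to 13.1% and 7.1% to 11% of all genes). In SD translation efficiency 7 to 9 were higher (1.71% to 6.38% of all genes). TMA20 footprints had 0 to 1 higher and 2 to 6 lower (0.39% to 2.17% and 0.652% to 2.9% of all genes). TMA20 translation efficiency had 0 to 1 lower (0% to 0.102% of all genes).

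Values that changed sign had not passed: GLN3 SD footprints (0.0052 with DESeq2, -0.062 to 0.080 without single lysates), URE2 SD footprints (0.015 without both shallowest lysates), MEP2 SD mRNA (-0.13 to 0.019 without single lysates), GAP1 TMA20 mRNA (0.075 in YPD alone, -0.22 to 0.0020 without single lysates) and GAT1 TMA20 footprints (-0.032 with both strands, -0.14 in YPD alone, -0.055 without both shallowest lysates, -0.052 to 0.16 without single lysates). The causes were not tested. Depth limits the genes with few footprints, among them DAL80, DAL5, DAL1, DAL4, DAL7 and DAL3, with 15 to 171 counts over all 9 lysates. It also limits PUT4, with 366 counts, and DUR3, with 390.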
